A study of Arabidopsis thaliana with 9 samples.

Results

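The JAZ (JASMONATE ZIM-DOMAIN) repressors are small nuclear proteins that keep jasmonate responses off. The 10 genes described here were chosen by locus: JAZ1, JAZ2, JAZ3, JAZ5, JAZ6, JAZ8, JAZ9, JAZ10, JAZ11 and JAZ12. They are 10 of the 37336 loci in the count table, and all 10 passed the filter on low counts. The plants were Arabidopsis thaliana of the accession Col-0, wild type, transferred 3 days after germination to 3 ml of liquid Murashige and Skoog medium for another 7 days (22 °C, days of 16 h light, nights of 8 h). Whole seedlings were then collected after 3 h in fresh medium with 10 µM abscisic acid (ABA, the hormone of drought and seed dormancy; 3 libraries) or with 0.1% DMSO as mock (3 libraries). The labels give a DMSO content for mock only. A further group with 10 µM of a compound named iCB is described by the labels and was not analysed here. The labels call the replicates independent biological ones.

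A JAZ protein binds transcription factors such as MYC2 and, through the adaptor NINJA, brings in corepressors of the TOPLESS family. When the active hormone, a conjugate of jasmonic acid with isoleucine, accumulates, it joins JAZ proteins to the F-box receptor COI1 and they are degraded, which frees the factors. Many JAZ genes are themselves switched on by MYC factors, so that a jasmonate pulse restores its own repressors. In seedlings this pathway is best known from defence, wounding and root growth.

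The JAZ genes with an adjusted p below 0.05 in the main fit were JAZ11, JAZ12 and JAZ3, higher in ABA, and JAZ6, lower. They were 4 of 10, against 60.4% of all tested loci. Their upstream sequences are printed because these genes passed that threshold, which JAZ1 narrowly missed (adjusted p = 0.0533 in edgeR's quasi-likelihood test). Each run is the 250 bases before the gene start annotated by RefSeq on TAIR10.1, read 5′ to 3′ on the gene's strand, and the genes were matched by locus because the count table has no coordinates. The positions are chr3:15367296-15367545 for JAZ11, chr5:7090454-7090703 for JAZ12, chr3:6119457-6119706 for JAZ3, all on the plus strand, and chr1:27276563-27276812 on the minus strand for JAZ6. Capitals mark matches on either strand to CACGTG (the G-box, which MYC2 and ABA-responsive bZIP factors can bind) or to AACGTG, whose reverse complement reads CACGTT.
JAZ11: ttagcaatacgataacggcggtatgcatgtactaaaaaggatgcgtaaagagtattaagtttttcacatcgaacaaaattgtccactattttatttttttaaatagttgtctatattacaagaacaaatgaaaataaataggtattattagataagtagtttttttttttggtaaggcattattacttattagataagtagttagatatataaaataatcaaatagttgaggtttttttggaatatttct
JAZ12: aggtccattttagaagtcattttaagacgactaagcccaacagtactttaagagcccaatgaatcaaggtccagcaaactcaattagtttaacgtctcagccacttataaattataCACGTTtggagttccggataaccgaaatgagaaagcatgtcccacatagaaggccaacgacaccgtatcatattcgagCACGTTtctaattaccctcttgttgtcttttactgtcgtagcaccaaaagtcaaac
JAZ3: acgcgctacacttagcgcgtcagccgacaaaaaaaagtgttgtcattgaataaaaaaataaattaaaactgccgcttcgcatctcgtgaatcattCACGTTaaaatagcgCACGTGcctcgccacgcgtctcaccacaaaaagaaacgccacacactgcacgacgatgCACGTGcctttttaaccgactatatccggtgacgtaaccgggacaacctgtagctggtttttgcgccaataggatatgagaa
JAZ6: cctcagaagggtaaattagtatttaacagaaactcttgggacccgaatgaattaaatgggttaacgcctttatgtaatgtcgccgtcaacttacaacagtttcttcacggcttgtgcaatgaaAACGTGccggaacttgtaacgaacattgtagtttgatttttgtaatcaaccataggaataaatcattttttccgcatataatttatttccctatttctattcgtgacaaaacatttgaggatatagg

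JAZ3 held 2 G-boxes, starting 140 and 82 bases before the gene start, and 1 AACGTG match, starting 155 bases before it. JAZ12 held 2 AACGTG matches, starting 134 and 56 bases before the start, and JAZ6 held 1, at 127 bases. JAZ11 held none of the motifs searched in this window. The JAZ6 window overlaps another annotated locus, AT1G09307. The G-box was found in 3 of the 10 JAZ windows (JAZ2, JAZ3 and JAZ8), against 6.49% of 27443 protein-coding genes with a window of the same length. AACGTG was found in 4 of the 10 (JAZ3, JAZ5, JAZ6 and JAZ12), against 7.54% of all. The ABRE core, ACGTGGC or ACGTGTC on either strand, was found in 0 of the 10, against 6.39%, and CACATG in 2 of the 10 (JAZ9 and JAZ10), against 11.1%. G-box and ABRE core matches can overlap. These matches describe the letters in the windows and were not tested for binding.

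Levels are CPM, counts scaled to a library of 1000000 with edgeR's trimmed-mean factors (TMM). The call for a gene required an adjusted p (Benjamini-Hochberg, all 21092 tested loci) below 0.05 in edgeR's quasi-likelihood test. Total counts were 22449479 to 22722904 in ABA libraries and 21585450 to 22528897 in mock libraries. The treatment marker RAB18 (AT5G66400), a dehydrin gene, averaged 1202 ± 104 CPM in ABA and 2.25 ± 0.93 CPM in mock (SD, n = 3 each). Shoot and root genes were present in both groups: RBCS1A ranged from 6294 to 7986 CPM in ABA and from 7119 to 7391 CPM in mock, and the root gene BGLU23 from 3099 to 3409 CPM in ABA and from 3349 to 4390 CPM in mock. Neither gene was called (edgeR adjusted p = 0.959 and 0.156). Of the guard cell lineage genes read, MYB60 fell by 1.92 ± 0.21 on the log2 scale (SE), KAT1 rose by 1.41 ± 0.11 and TOO MANY MOUTHS was not called, and their part in the JAZ values was not tested. In whole seedlings, a change in the share of cells that express a gene and a change in RNA per cell cannot be told apart.

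**Figure D1:**
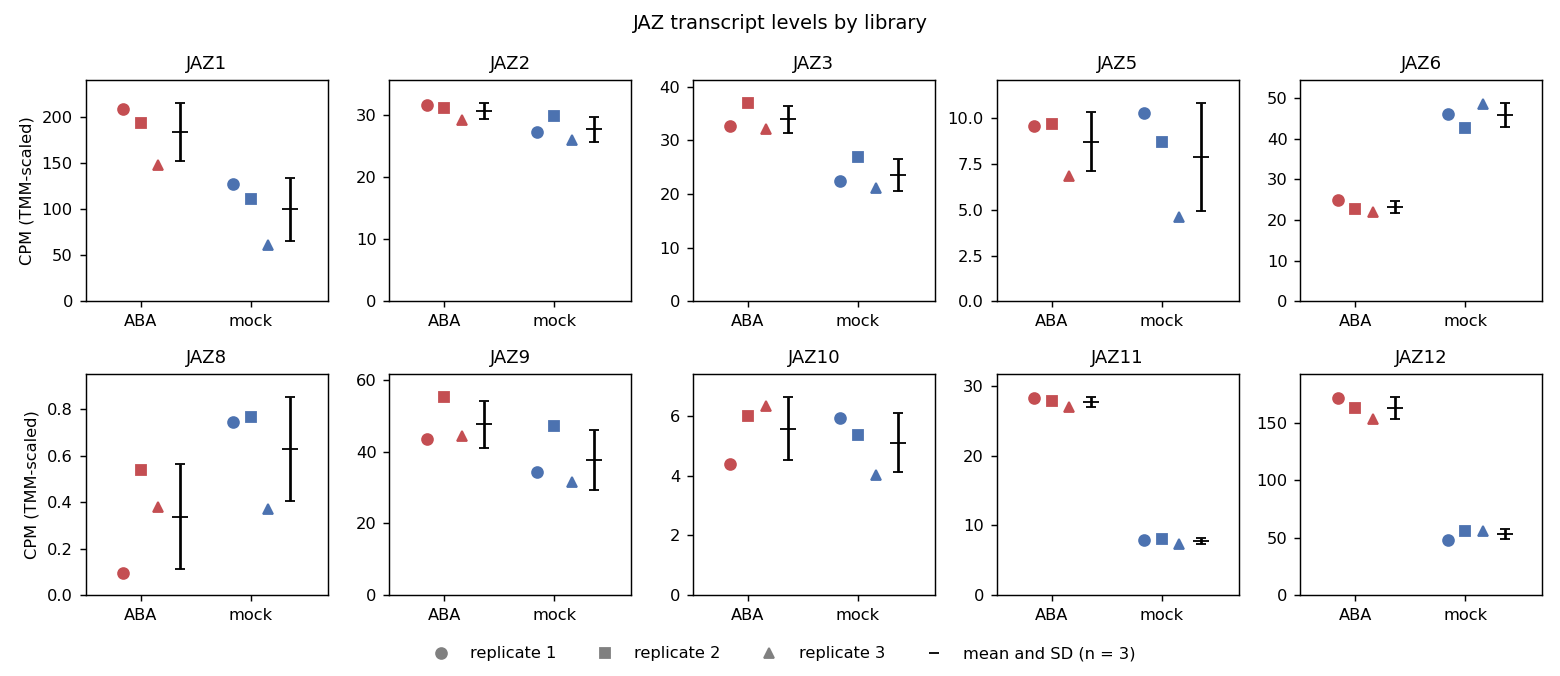
TMM-scaled CPM of each JAZ gene in the 3 ABA and 3 mock libraries, by replicate, with mean and SD. The groups stand apart for JAZ1, JAZ3, JAZ6, JAZ11 and JAZ12 and overlap for the other 5 genes.

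Of the 10 JAZ genes, 3 were higher and 1 was lower in ABA. Over all tested loci, 31.0% were called higher and 29.4% lower, or 60.4% in either direction. In this fit the 4 calls among 10 genes were a smaller share than that background. The difference in share was not tested, and the number of JAZ calls depended on the setting. DESeq2 called 4 JAZ genes higher and 1 lower, and 6096 of all loci higher and 5604 lower. It tested more loci than the main fit, so 60.4% is not its background. With the replicate number as a block, 5 JAZ genes were higher and 1 lower, against 6586 of all tested loci higher and 6229 lower. Without mock replicate 2 the JAZ calls were also 5 higher and 1 lower, against 6258 and 5796. With limma and with upper-quartile factors, 3 JAZ genes were higher and 1 lower, as in the main fit. Of all tested loci, limma called 6589 higher and 6095 lower, and upper-quartile factors gave 4618 higher and 9100 lower. The smaller share above was read for the main fit only. The median log2 fold change was 0.24 over the JAZ genes and -0.01 over all tested loci. With library totals the JAZ calls were again 3 higher and 1 lower, with a median of 0.01, while 4475 of all tested loci were higher and 9459 lower. The ABA libraries did not overlap the mock libraries for 5 of the 10 genes, against 67.9% of all tested loci. When an absolute log2 fold change of 1 or more was also required, 2 JAZ genes (JAZ11 and JAZ12) were called, both higher, against 20.5% of all tested loci in either direction. The called changes ran from a 3.56-fold rise of JAZ11 to a 1.98-fold fall of JAZ6.

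JAZ11 (AT3G43440) and JAZ12 (AT5G20900) are sister genes, TIFY3A and TIFY3B, and both rose. JAZ11 measured 28.3, 27.8 and 27.0 CPM in ABA replicates 1 to 3, against 7.98, 8.10 and 7.30 CPM in mock replicates 1 to 3. Every ABA library was above every mock library, and replicates of a group lay close together. The log2 fold change was 1.83 ± 0.08 (SE), with an adjusted p of 1.71e-07 in edgeR's quasi-likelihood test. JAZ12, whose protein is stabilised by KEG, an E3 ubiquitin ligase known from ABA signalling, measured 172, 163 and 153 CPM in ABA against 48.4, 55.9 and 56.1 CPM in mock. These groups did not overlap either. Its log2 fold change was 1.61 ± 0.08 (edgeR adjusted p = 4.83e-07), a 3.04-fold rise.

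Both rises kept their call under every alternative tried, with log2 fold changes of 1.60 to 1.86 for JAZ11 and 1.38 to 1.65 for JAZ12. JAZ12 shares 28 bases with AIP2 (AT5G20910) and 211 bases with the locus AT5G03235, both on the opposite strand, and the strand setting of the counting is not given in the sources used here. AIP2 held 539, 476 and 526 counts in ABA libraries against 322, 307 and 354 in mock libraries, and AT5G03235 held 25, 16 and 9 against 4, 5 and 7. JAZ12 itself held 3605, 3335 and 3230 counts in ABA libraries and 1171, 1312 and 1368 in mock libraries. The part of antisense reads in the JAZ12 value was not tested.

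JAZ3 (AT3G17860), known from the jasmonate-insensitive mutant jai3, rose less. It measured 32.7, 36.9 and 32.1 CPM in ABA against 22.5, 26.8 and 21.1 CPM in mock. The lowest ABA library lay above the highest mock library. The log2 fold change was 0.53 ± 0.10 (edgeR adjusted p = 1.71e-03), and it was 0.30 with library totals in place of TMM factors (adjusted p = 0.0252). The adjusted p over all alternatives ran from 9.96e-05 to 0.0252.

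JAZ6 (AT1G72450), tied in earlier work to the daily rhythm of defence against a fungal pathogen, was the member that fell. It measured 24.9, 22.7 and 22.0 CPM in ABA against 46.0, 42.7 and 48.6 CPM in mock. All ABA libraries were below all mock libraries. The log2 fold change was -0.98 ± 0.08 (edgeR adjusted p = 7.68e-06), and it ran from -1.21 to -0.94 over the alternatives.

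**Figure D2:**
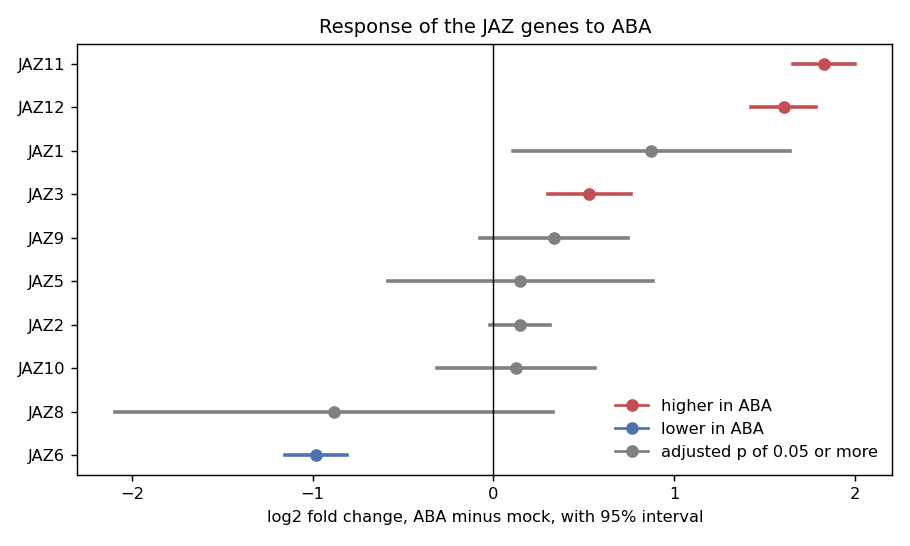
Log2 fold change of each JAZ gene, ABA minus mock, with its 95% interval from edgeR's quasi-likelihood fit, not adjusted for the number of loci. JAZ11, JAZ12 and JAZ3 lie above 0 and JAZ6 below it; JAZ1 lies above 0 with an adjusted p of 0.0533.

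JAZ1 (AT1G19180), among the best known of the proteins degraded through COI1, had the highest CPM of the 10 genes in 5 of the 6 libraries and missed the threshold. It measured 208, 193 and 148 CPM in ABA against 127, 111 and 61.4 CPM in mock. The lowest ABA library (replicate 3) lay above the highest mock library (replicate 1), and replicate 3 was the lowest library of both groups. The log2 fold change was 0.87 ± 0.30, with a 95% interval of 0.11 to 1.64 and an edgeR adjusted p of 0.0533. DESeq2 called it higher (adjusted p = 0.0146), as did edgeR without mock replicate 1 (1.09, adjusted p = 0.0386) and without mock replicate 3 (0.60, adjusted p = 0.0108). Over the alternatives without a replicate block its adjusted p ran from 0.0108 to 0.149. With the replicate number as a block, JAZ1 was called higher (0.92, edgeR adjusted p = 7.58e-04).

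The other 5 genes were not called. JAZ2 (AT1G74950, TIFY10B), known for a role in guard cells, measured 31.6, 31.0 and 29.2 CPM in ABA against 27.2, 29.8 and 26.0 CPM in mock. Its groups overlapped, and its log2 fold change had a 95% interval of -0.02 to 0.31, so changes larger than that lay outside the interval. JAZ9 (AT1G70700, TIFY7), which can bind the DELLA growth repressor RGA, measured 43.5, 55.2 and 44.3 CPM in ABA against 34.3, 47.3 and 31.6 CPM in mock. Replicate 2 was the highest library in both groups, and the interval was -0.07 to 0.75. Without mock replicate 2, JAZ9 was called higher at 0.53 (edgeR adjusted p = 5.73e-03), and so was JAZ2 at 0.20 (adjusted p = 0.0405). Over the alternatives without a replicate block the adjusted p ran from 5.73e-03 to 0.600 for JAZ9 and from 0.0405 to 0.482 for JAZ2, whose log2 fold change was -0.08 with library totals. With the replicate number as a block, JAZ9 was called higher (edgeR adjusted p = 3.78e-03) and JAZ2 was not (0.0961).

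Like many other JAZ genes, JAZ5, JAZ10 and JAZ8 are known to be raised by wounding or jasmonate, and the levels of these 3 were low. JAZ5 (AT1G17380) measured 9.59, 9.69 and 6.87 CPM in ABA against 10.3, 8.70 and 4.59 CPM in mock. JAZ10 (AT5G13220), known for splice forms that resist degradation, measured 4.39, 6.02 and 6.35 CPM in ABA against 5.95, 5.37 and 4.02 CPM in mock. The groups overlapped for both, with 95% intervals of -0.58 to 0.88 for JAZ5 and -0.31 to 0.56 for JAZ10. JAZ8 (AT1G30135), whose protein lacks the usual degron and binds TOPLESS directly, held 2, 11 and 8 counts in ABA libraries against 18, 18 and 9 in mock libraries. Its 95% interval ran from -2.10 to 0.33, so a fall within that range was not resolved at these counts. The edgeR adjusted p was 0.697 for JAZ5, 0.591 for JAZ10 and 0.182 for JAZ8, and none of these 3 genes was called under any alternative tried.

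Ordered by CPM per kb of exon, JAZ12 led in ABA at 151 ± 8.85 and JAZ1 followed at 101 ± 17.4 (SD, n = 3). The length counts every base that is exonic in any annotated transcript. It was 1804 bases over 3 transcripts for JAZ1 and 1081 bases over 1 transcript for JAZ12. Genes with several forms can therefore read too low on this scale. In CPM without the length, JAZ1 averaged 183 in ABA and JAZ12 averaged 163. In mock, JAZ1 stood at 55.3 ± 19.0 and JAZ12 at 49.5 ± 4.07, and their libraries overlapped. Below them, JAZ9 (25.7 ± 3.52), JAZ11 (22.6 ± 0.54) and JAZ2 (22.3 ± 0.89) came next in ABA, where JAZ11 and JAZ2 overlapped. In mock the next genes were JAZ6 (21.5 ± 1.39), JAZ9 (20.3 ± 4.52) and JAZ2 (20.1 ± 1.42), with overlapping libraries between neighbours. JAZ6 was seventh in ABA at 10.9 ± 0.71, and JAZ11 was seventh in mock at 6.37 ± 0.35. JAZ5, JAZ10 and JAZ8 took the last 3 places in both groups, at or below 3.90 CPM per kb on average.

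**Figure D3:**
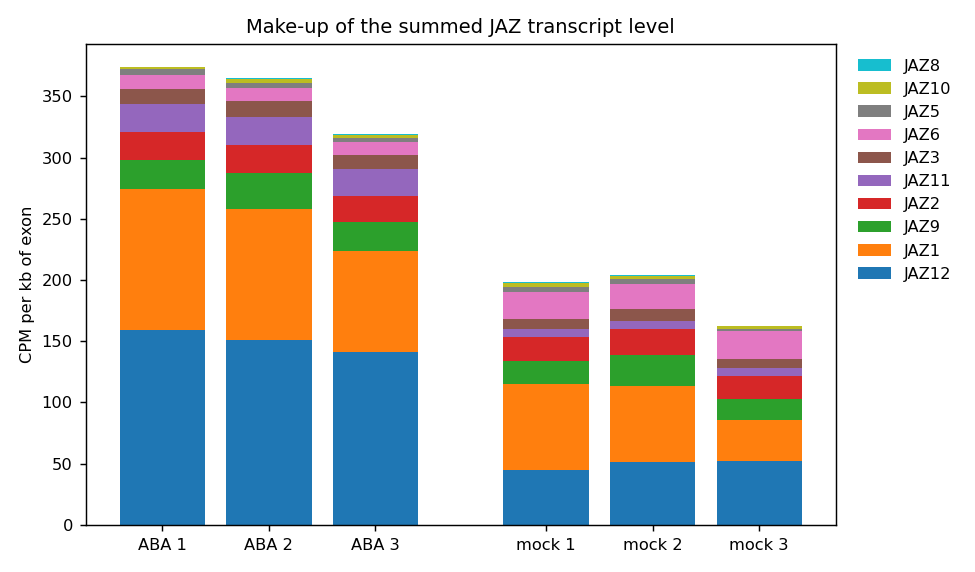
CPM per kb of exon of the 10 JAZ genes, stacked, for each library. The summed level reached 374, 365 and 319 in ABA libraries and 198, 204 and 163 in mock libraries.

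The summed level of the 10 genes was 353 ± 29.5 CPM per kb in ABA and 188 ± 22.3 in mock (SD, n = 3 each), a ratio of 1.87, or 1.60 with library totals. JAZ12 made up 42.5%, 41.4% and 44.4% of the sum in ABA libraries, against 22.6%, 25.4% and 31.9% in mock libraries. JAZ1 held 28.6% ± 2.65 in ABA and 28.9% ± 7.43 in mock. JAZ6 held 3.09% ± 0.16 in ABA and 11.6% ± 2.18 in mock, and JAZ11 held 6.44% ± 0.41 in ABA and 3.40% ± 0.23 in mock. These are shares of the summed CPM per kb and depend on the exon lengths used, and no test was run on the sum.

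Ratios between sister genes within a library do not depend on the scaling. JAZ5 and JAZ6 are sisters (TIFY11A and TIFY11B), and the log2 ratio of JAZ5 to JAZ6 counts was -1.37, -1.22 and -1.67 in ABA libraries against -2.16, -2.29 and -3.40 in mock libraries. For JAZ1 and JAZ2 (TIFY10A and TIFY10B) it was 2.72, 2.64 and 2.34 in ABA against 2.23, 1.89 and 1.24 in mock. In both pairs every ABA library was above every mock library. JAZ6 and JAZ1 also separated the groups on their own, and ratios of genes that are not sisters were not computed. For JAZ11 over JAZ12 it was -2.60, -2.55 and -2.50 in ABA against -2.60, -2.78 and -2.94 in mock, where the groups overlapped. With JAZ4 and JAZ7 as the sisters of JAZ3 and JAZ8, 5 pairs were compared. The ratio of JAZ3 to JAZ4 averaged 3.25 ± 0.33 in ABA and 2.04 ± 0.60 in mock, and that of JAZ8 to JAZ7 averaged -4.39 ± 1.28 in ABA and -1.04 ± 0.36 in mock (SD, n = 3 each). A two-sided exact permutation test gave p = 0.1 for 4 pairs and p = 0.2 for JAZ11 over JAZ12 (adjusted over the 5 pairs, 0.125 and 0.2). The smallest p that 3 against 3 libraries allow is 0.1, so no pair could fall below 0.05 and no call was drawn.

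**Figure D4:**
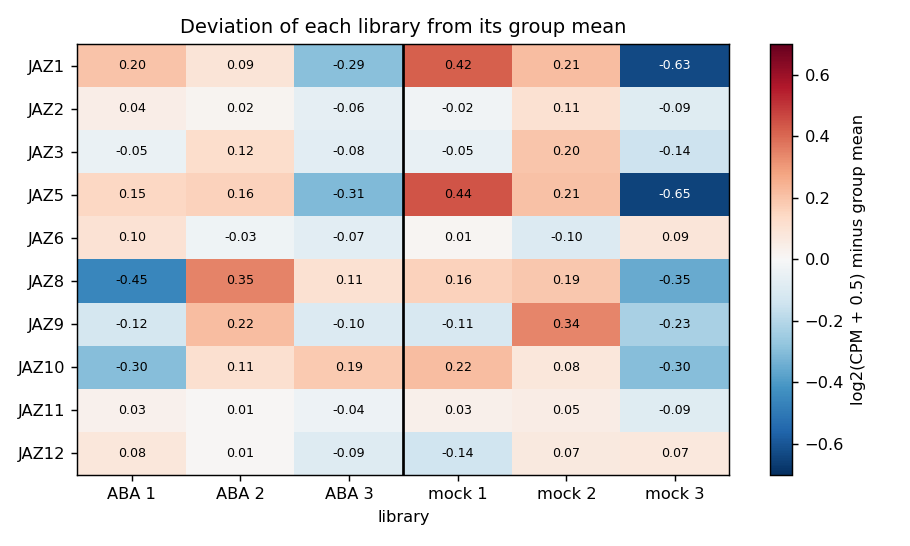
Log2(CPM + 0.5) of each JAZ gene in each library minus the mean of its group. In ABA, JAZ8 deviates most, with -0.45 in replicate 1; in mock, JAZ1 and JAZ5 deviate most, with -0.63 and -0.65 in replicate 3.

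The members differed in how much they varied between libraries of a group. On the log2 scale the SD over mock libraries was 0.56 for JAZ1 and 0.57 for JAZ5, larger than for 97.1% and 97.3% of tested loci, against a median of 0.11 over all loci. JAZ11 (0.08), JAZ6 (0.09) and JAZ2 (0.10) lay below that median and JAZ12 (0.12) just above it. In ABA the SD was largest for the low-count gene JAZ8 (0.41, above 97.7% of tested loci), followed by JAZ5 (0.27), JAZ10 (0.26) and JAZ1 (0.26), against a median of 0.10. Mock replicate 3 was the lowest mock library for 8 of the 10 genes, against 31.8% of all tested loci, and ABA replicate 3 was the lowest ABA library for 7 of the 10, against 33.6%. Among 59 other jasmonate genes, mock replicate 3 was the lowest mock library for 26 and ABA replicate 3 the lowest ABA library for 29. All members were read in the same 6 libraries and are not independent of each other.

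The genes around the JAZ proteins changed in both directions. Of 66 other jasmonate genes, 59 were tested, 29 were higher and 12 lower, with a median log2 fold change of 0.26, against 31.0% higher and 29.4% lower over all tested loci. With library totals and with upper-quartile factors, 22 of the 59 were higher and 18 lower. The other TIFY genes gave 1 rise and 2 falls among 5 tested. For them and for the lists that follow, the background of 31.0% and 29.4% holds for the main fit with TMM factors. List counts under library totals or upper-quartile factors are to be read against the counts of all loci given above for those scalings. JAZ7 (AT2G34600, TIFY5B), a repressor close to JAZ8, measured 6.97, 7.05 and 5.02 CPM in ABA against 1.24, 1.53 and 1.03 CPM in mock, a log2 fold change of 2.32 ± 0.21 (edgeR adjusted p = 1.98e-05). PPD1, a leaf growth regulator of the same family, fell by 1.00 ± 0.16 on the log2 scale, and TIFY8 fell by 0.53 ± 0.06. JAZ4 was not called at -0.72 ± 0.30 (edgeR adjusted p = 0.0748), but was called lower with library totals (0.0276), with upper-quartile factors (0.0295), by DESeq2 (0.0430) and without mock replicate 1 (2.13e-03). Its adjusted p over all alternatives ran from 2.13e-03 to 0.212. AT3G22275, the locus of JAZ13, which has no symbol in the reference, held at most 6 counts in a library and was not tested.

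**Figure D5:**
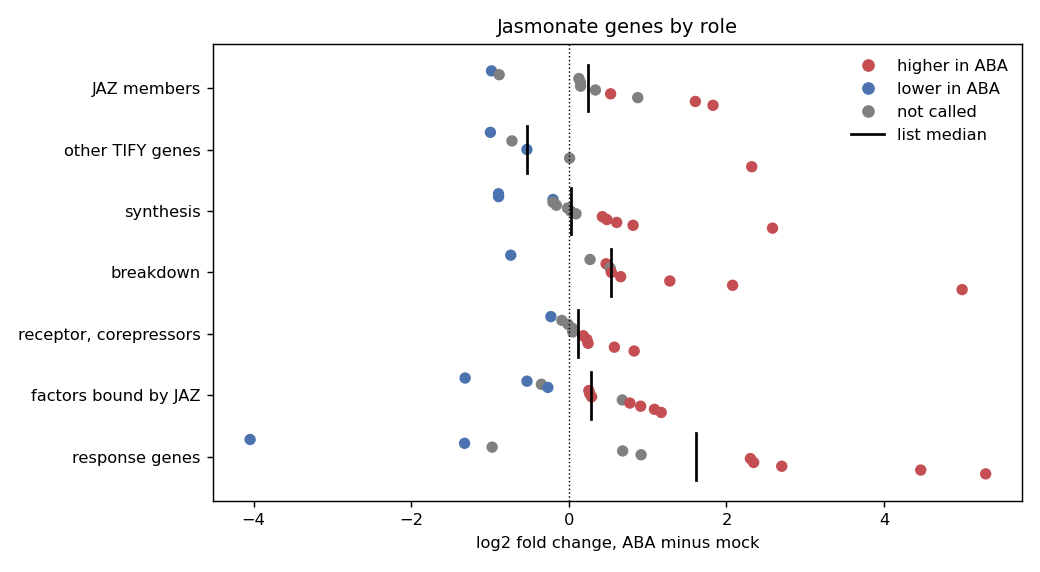
Log2 fold change, ABA minus mock, of the tested genes of each jasmonate list, with the list median as a black bar. Response genes spread widest, from -4.05 (ORA59) to 5.29 (NAC019).

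Genes of jasmonate synthesis gave 5 rises and 3 falls among 13 tested, with a median of 0.02, and 5 falls with library totals or upper-quartile factors, where AOC1 and LOX4 were also called lower. Without ABA replicate 3 or without mock replicate 2, 1 of these genes was called lower. ACX1, a peroxisomal acyl-CoA oxidase, rose by 2.58 ± 0.07, OPCL1, a ligase of the same organelle, fell by 0.89 ± 0.10, and JAR1, which makes the active isoleucine conjugate, rose by 0.43 ± 0.06. Genes of breakdown gave 6 rises and 1 fall among 9 tested, with a median of 0.54, and the same counts with those scalings. CYP94B3, which oxidises the active conjugate, measured 103, 101 and 92.1 CPM in ABA against 2.98, 3.50 and 2.83 CPM in mock. The sulfotransferase gene ST2A rose by 2.08 ± 0.14 and the amidohydrolase gene ILL6 by 0.66 ± 0.09. The edgeR adjusted p of these named genes was at most 3.54e-04.

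Calls among the receptor and corepressor genes depended on the scaling. COI1 averaged 31.0 ± 0.80 CPM in ABA and 36.3 ± 2.26 CPM in mock (log2 fold change -0.23 ± 0.07, edgeR adjusted p = 0.0169), a call lost in DESeq2 (adjusted p = 0.0531) and without ABA replicate 3 (0.0657). Its adjusted p over all alternatives ran from 3.69e-04 to 0.0657. NINJA was not called with TMM factors (0.04 ± 0.06) and was called lower with library totals (-0.19) and with upper-quartile factors (-0.17). Of the 10 genes of this list 5 rose and 1 fell, with a median of 0.12, but 2 were higher (TPR4 and MED25) and 4 lower (COI1, NINJA, HDA19 and TPR1) with library totals or upper-quartile factors. TPR4, a TOPLESS relative, rose by 0.83 ± 0.06 and the Mediator subunit gene MED25 by 0.58 ± 0.09. TPL itself rose by 0.24 ± 0.06 with TMM factors, a call lost with library totals (0.016) and with upper-quartile factors (0.036), and the calls of TPR2 and HDA6 were lost with the same scalings. Without mock replicate 3, 3 genes of the list were called higher.

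Among the factors that JAZ proteins bind, 7 rose and 3 fell of 12 tested, with a median of 0.28. With library totals or upper-quartile factors 3 rose (JAM1, PIF4 and ICE1) and 3 fell, and MYC3, JAM3, TT8 and ICE2 were no longer called. MYC2, the best known of them, measured 136, 150 and 96.8 CPM in ABA against 90.4, 102 and 47.0 CPM in mock. It had a log2 fold change of 0.68 ± 0.34 and was not called (edgeR adjusted p = 0.143), with overlapping groups and an adjusted p of 0.112 to 0.306 over the alternatives without a replicate block. With the replicate number as a block, MYC2 was called higher (0.73, edgeR adjusted p = 1.04e-03). MYC4 fell by 1.32 ± 0.11, at 10.9, 9.01 and 8.43 CPM in ABA against 23.0, 22.5 and 25.2 CPM in mock. JAM1, a relative of MYC2 that represses jasmonate responses, rose by 0.91 ± 0.11, and ICE1, a regulator of cold response and stomata, by 0.77 ± 0.07. Jasmonate response genes gave 5 rises and 2 falls among 10 tested, with a median of 1.61. One of the rises, NATA1, measured 160.0, 185 and 162 CPM in ABA against 43.2, 46.9 and 9.60 CPM in mock (edgeR adjusted p = 0.0232). NATA1 lost its call without ABA replicate 1 (0.0565), 2 (0.0586) or 3 (0.0590), and kept it without mock replicate 1 (0.0435) or 2 (0.0378). Without mock replicate 3, its lowest library, the log2 fold change was 1.88 (edgeR adjusted p = 3.87e-07). NAC019 and NAC055, which also belong to the ABA response, rose by 5.29 ± 0.15 and 4.47 ± 0.19, while ORA59, which acts in the branch shared with ethylene, fell to 0.81, 0.83 and 0.57 CPM in ABA against 11.6, 11.0 and 14.2 CPM in mock. The edgeR adjusted p of MYC4, JAM1, ICE1, NAC019, NAC055 and ORA59 was at most 9.17e-05.

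The loci whose pattern lay closest to JAZ11 over the 6 libraries, by the root mean square difference of log2(CPM + 0.5) after centring on the mock mean, were NF-YC3 (0.038), TMT2 (0.057) and APG8A (0.057). For JAZ6 they were AT4G02400 (0.029), NOF1 (0.032) and ECT3 (0.032). Among the 15828 loci compared, which had a mean of at least 5 CPM, 404 lay within 0.25 of JAZ11 and 1133 within 0.25 of JAZ6.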

How the data were processed

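RNA was taken from whole seedlings and sequenced from a strand-specific mRNA library for DNBSEQ, per the labels' protocols. Per the submitters' processing notes, the tools were FastQC, cutadapt, STAR and DESeq2, on TAIR10. On versions, annotation release, read counter and its strand setting, nothing is given in the sources used here. Raw counts of reads for each locus, without normalization by the authors, make up the deposited table. The names of 3 of its columns match no label, so these were not used, and the planned iCB comparisons were not made. Replicates differed beyond sampling noise, and more so in mock. Chi-square over degrees of freedom was 6.64 to 7.41 between ABA libraries and 14.1 to 14.7 between mock libraries. The fit used the same dispersion for both groups of a gene.

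Counts were fitted in R 4.3.3 with edgeR 4.0.16 (filterByExpr, TMM, robust quasi-likelihood F test) on 6 libraries. Log2 fold changes are ABA minus mock. The SE is the fold change over the square root of F, and 95% intervals use the t distribution with the test's degrees of freedom. Depth limits the low genes most, and p-values cover the spread between these libraries. Alternatives used DESeq2 1.42.0, limma 3.58.1, other scalings, filters and thresholds, the replicate number as a block, and each library left out. The steps were run on simulated data with few changed genes, balanced between rises and falls, and the same spread for all genes. That setting differs from these data and cannot judge the choice of scaling.

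Symbols, exon lengths and upstream sequences came from RefSeq on TAIR10.1, where all 10 JAZ loci were found; no 50-base stretch of their exons occurred elsewhere in that genome. Named genes are all 10 members, fixed pathway genes, the 3 genes with the smallest adjusted p in each other list, and the 3 loci nearest in pattern; NATA1, AIP2 and AT5G03235, RBCS1A, BGLU23, MYB60 and KAT1 as tissue markers, and the pairs of sister genes were chosen outside that rule. The members and lists were chosen with earlier results of these data known.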

Additional observations from a re-analysis of the deposited data

How the results depend on the processing

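Under 16 alternatives the number of JAZ genes called higher in ABA was 2 to 5 and the number called lower was 0 or 1. The main fit did not pair the libraries by replicate number. Deviations of same-numbered libraries correlated across 21092 genes with r of 0.072, 0.095 and 0.223, and each library correlated best with its own number. For libraries of different number, r ran from -0.135 to 0.049. Deviations from a group mean cancel within the group for each gene, so these lower values are not a separate observation. These values do not settle whether the numbers pair the libraries, and the calls of JAZ1, JAZ9 and MYC2 depended on that choice. With the replicate block, 5 JAZ genes were called higher, JAZ1 (0.92, edgeR adjusted p = 7.58e-04) and JAZ9 (0.35, adjusted p = 3.78e-03) joining the 3, MYC2 was called higher (0.73, adjusted p = 1.04e-03) and NATA1 was not called (adjusted p = 0.0617). With 1 library left out, 3 to 5 were higher, 5 without mock replicate 2, and 1 was lower each time. When absolute log2 fold changes under 1 were not called, 0 JAZ genes were lower, 12 other jasmonate genes were higher and 3 lower, and 2471 of all loci were higher and 1847 lower. The median shift of all loci against TMM was -0.23 on the log2 scale with library totals and -0.21 with upper-quartile factors; with library totals 9459 of all loci were lower, against 6205 with TMM. HDA6, higher with TMM (0.18), changed sign to -0.047 with library totals and -0.025 with upper-quartile factors, neither called, and NINJA changed to -0.19 and -0.17, both called lower. The moves of these genes were close in size to the median shift of all loci. Why the scalings differ was not tested. Of the log2 fold changes of single JAZ genes under an alternative, 150 kept their side of the threshold, 7 gained a call and 2 lost one, and no called JAZ gene changed sign. The filter at 5 CPM removed JAZ8, so it has 15 alternatives. The ratio of summed JAZ levels, tried after the data were seen, ran from 1.60 with library totals (1.62 with upper-quartile factors) to 1.97 without ABA replicate 3.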
